A study of Mus musculus with 59 samples.

Results

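Expression of the subunits of Polycomb repressive complex 1 (PRC1) was examined in 14 single mouse epiblasts at E6.25, shortly before gastrulation. The members were chosen by symbol and number 10 of the 22119 genes with a listed transcript: *Rnf2*, *Ring1*, *Bmi1*, *Pcgf2*, *Pcgf6*, *Cbx2*, *Cbx7*, *Cbx8*, *Phc1* and *Kdm2b*. Each gene was read through its transcript with the highest mean raw count. Embryos came from intercrosses of heterozygotes on a mixed background, and each epiblast was 1 embryo and 1 library. The *Ehmt2* cross gave 4 control and 4 *Ehmt2*-/- epiblasts from 4 litters, and the *Ezh2* cross 3 control and 3 *Ezh2*-/- epiblasts from 3 litters. *Ehmt2* encodes G9a, which deposits H3K9me2, and *Ezh2* encodes the H3K27 methyltransferase of PRC2. The labels give the controls as G9a+/+ and Ezh+/+, but the study's text allows heterozygous controls, so a control epiblast may carry 1 null allele. The *Ehmt2* null allele was bred with a *Pou5f1*-EGFP reporter transgene whose carriers among these epiblasts are not labelled. The comparison asks whether loss of either methyltransferase goes with altered expression of the complex that reads and extends Polycomb silencing.

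PRC1 is built around the E3 ligases RING1A (*Ring1*) and RING1B (*Rnf2*), which place ubiquitin on histone H2A. Each complex holds 1 PCGF subunit. Canonical PRC1 carries BMI1 or PCGF2 (MEL18) together with a CBX chromodomain protein, which binds H3K27me3, and a polyhomeotic protein such as PHC1, whose SAM domain polymerises. Variant PRC1 lacks the CBX subunit; complexes with PCGF6 work with MGA and MAX, and KDM2B brings a variant complex to unmethylated CpG islands through a zinc finger that recognises CG. The complex is known for silencing developmental regulators in pluripotent cells and their early descendants.

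The libraries held between 30161171 and 68464895 counts over all transcripts. Levels are given as CPM, the usual unit that relates a transcript's counts to the total of its library, scaled within each cross, and differences as log2 fold changes with their standard errors (SE) from edgeR's quasi-likelihood fit of each cross, with p-values adjusted after Benjamini-Hochberg over all transcripts tested. The targeted genes went with the labels: *Ehmt2* was at 10.3, 11.1, 15.5 and 32.8 CPM in its controls against 4.73, 4.48, 3.22 and 9.46 CPM in its knockouts (adjusted p = 0.0045), and *Ezh2* at 53.4, 67.2 and 112 CPM against 11.8, 12.0 and 16.6 CPM (adjusted p = 0.016). All 8 epiblast markers were detected in every library. Summed extraembryonic ectoderm markers (10 genes) reached 46.4 to 152 CPM in *Ehmt2* controls, 89.5 to 981 CPM in *Ehmt2* knockouts, 76.8 to 140 CPM in *Ezh2* controls and 138 to 229 CPM in *Ezh2* knockouts. The sums rest mostly on a few abundant markers. *Eomes* had the highest mean in *Ehmt2* and *Ezh2* controls (58.0 and 78.7 CPM). *Sfmbt2* and *Rhox5* averaged 131 and 92.6 CPM in *Ehmt2* knockouts and 49.6 and 24.8 CPM in *Ezh2* knockouts. In the *Ehmt2* cross 6 of those 10 markers passed the test, all higher in knockouts, and in the *Ezh2* cross 0 of 8 tested, though all 8 were higher. The defining marker *Elf5* averaged 0.291 CPM in *Ehmt2* controls (0 to 0.525) and 19.4 CPM in *Ehmt2* knockouts (0 to 59.6), with overlap. *Eomes* was the 1 marker of the 10 with a negative log2 fold change in the *Ehmt2* cross (-0.13), with a mean of 60.7 CPM in knockouts. The summed epiblast markers were 2511 to 2881 CPM in *Ehmt2* controls and 1517 to 2250 CPM in *Ehmt2* knockouts, without overlap. *Dnmt3b* alone averaged 1748 CPM in these controls and 1239 CPM in these knockouts. Of the 8 markers 7 were lower in *Ehmt2* knockouts and 1, *Sox2*, was higher (log2 fold change 0.28). The groups did not overlap for 2 of the 8, *Dnmt3b* and *Otx2*, against 6.21% of genes. Summed visceral endoderm markers were at 1158 CPM in *Ezh2* control 2 and 2637 CPM in *Ezh2* knockout 1, and at most 54.6 CPM in the other libraries. In bulk RNA of an epiblast, fewer cells of a type and less RNA per cell cannot be told apart.

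No PRC1 member passed the test in either cross. In the *Ehmt2* cross edgeR called 0 of 10 members at an adjusted p under 0.05, where 1.11% of the 13738 tested genes were called; 4 of 10 had an unadjusted p under 0.05, against 15.4% of genes. Of these 1 was higher in knockouts (*Bmi1*, against 8.59% of genes) and 3 lower (*Ring1*, *Pcgf2* and *Phc1*, against 6.85%). Among *Ezh2* epiblasts it called 0 of 10, where 0.00714% of 13998 genes, *Ezh2* alone, were called; 3 of 10 had an unadjusted p under 0.05, against 8.87% of genes. *Bmi1* and *Ring1* were the higher ones (5.5% of genes) and *Kdm2b* the lower one (3.37%). DESeq2 called 1 of 10 members in each cross, *Bmi1* both times, against 4.55% of genes in the *Ehmt2* cross and 1.01% in the *Ezh2* cross. The members' median log2 fold change was -0.14 in the *Ehmt2* cross and 0.09 in the *Ezh2* cross, beside 0.01 and 0.03 over all tested genes. All 10 members passed the filter on low counts in both crosses.

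**Figure D1:**
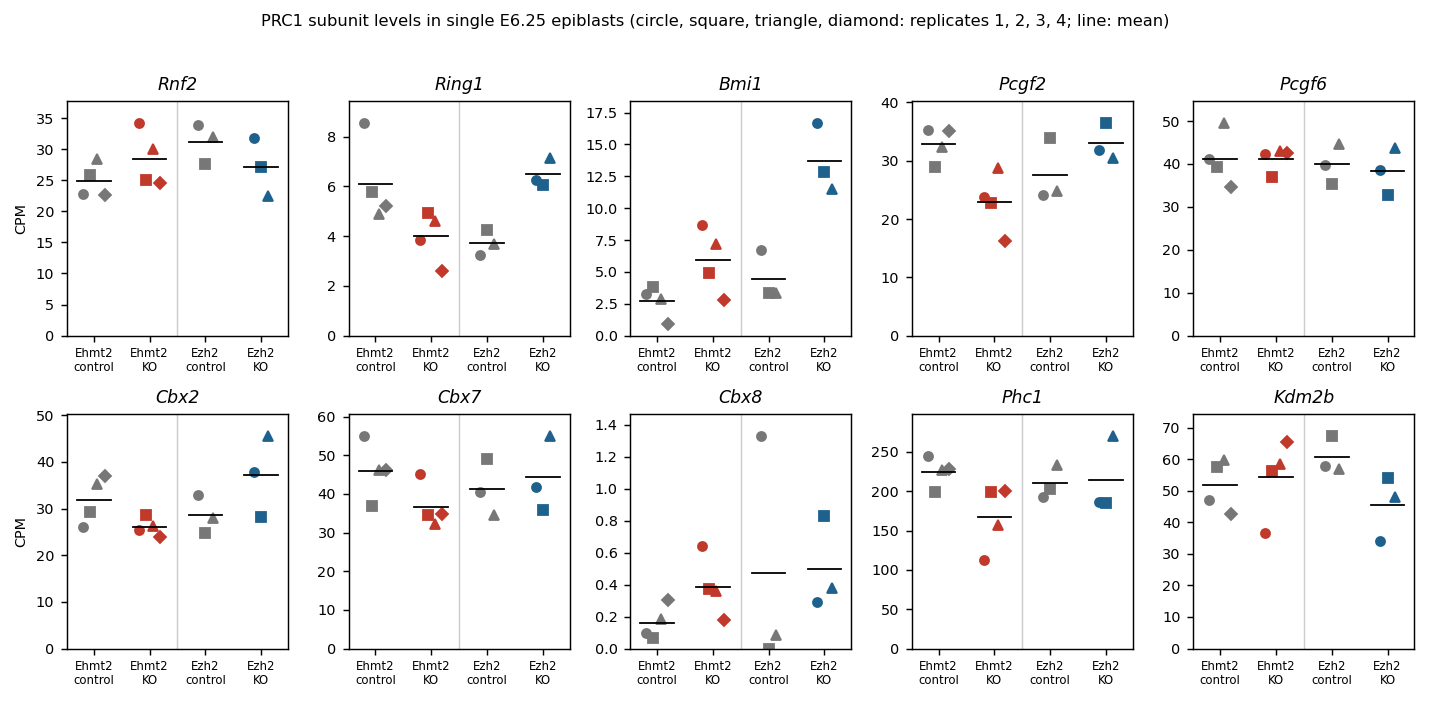
Level of each PRC1 member in CPM (vertical axis, from 0) in the 14 epiblasts, grouped by cross and genotype. Each point is 1 epiblast and the line is the group mean. CPM were scaled within each cross, so levels compare best within a cross. *Bmi1* in *Ezh2* knockouts (11.5 to 16.7 CPM) lies above every *Ezh2* control, and *Pcgf2* in *Ehmt2* knockouts (16.2 to 28.7 CPM) below every *Ehmt2* control.

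The start regions of 4 members are printed here because the levels of these subunits did not overlap between genotypes in at least 1 cross and because KDM2B, itself among them, recognises CG. The 250 bases before a RefSeq start of *Bmi1*, *Ring1*, *Pcgf2* and *Kdm2b* (GRCm38.p6, the files' build, 5′ to 3′ on the gene's strand) hold no annotated exon and are given with each CG in capitals. The *Bmi1* window is at chr2:18676768-18677017 on the plus strand. Those on the minus strand are *Ring1* at chr17:34024681-34024930, *Pcgf2* at chr11:97699649-97699898 and *Kdm2b* at chr5:122900368-122900617. This *Kdm2b* window is, of its 4, the one without an exon before the start. Only the *Bmi1* window ends at the start of the transcript whose level was measured. The measured transcripts of *Ring1*, *Pcgf2* and *Kdm2b* start elsewhere, at chr17:34023932, chr11:97699384 and chr5:122989099. The window just before that *Kdm2b* start (chr5:122989100-122989349) holds 27 CG and 207 exonic bases, and was not printed.
Bmi1: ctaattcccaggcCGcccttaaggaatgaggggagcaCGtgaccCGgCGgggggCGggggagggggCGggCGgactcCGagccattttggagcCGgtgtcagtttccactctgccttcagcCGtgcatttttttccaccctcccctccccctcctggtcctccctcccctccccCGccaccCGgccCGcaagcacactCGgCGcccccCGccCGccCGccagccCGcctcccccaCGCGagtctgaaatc
Ring1: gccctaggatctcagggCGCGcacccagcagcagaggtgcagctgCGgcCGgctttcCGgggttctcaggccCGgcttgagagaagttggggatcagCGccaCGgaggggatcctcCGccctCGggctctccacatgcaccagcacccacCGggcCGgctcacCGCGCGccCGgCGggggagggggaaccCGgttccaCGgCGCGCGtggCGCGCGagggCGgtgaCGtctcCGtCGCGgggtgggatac
Pcgf2: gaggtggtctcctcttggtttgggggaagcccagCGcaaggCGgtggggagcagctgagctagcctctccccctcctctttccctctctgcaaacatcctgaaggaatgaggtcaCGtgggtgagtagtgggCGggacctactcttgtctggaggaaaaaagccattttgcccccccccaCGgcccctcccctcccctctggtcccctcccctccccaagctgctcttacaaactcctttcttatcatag
Kdm2b: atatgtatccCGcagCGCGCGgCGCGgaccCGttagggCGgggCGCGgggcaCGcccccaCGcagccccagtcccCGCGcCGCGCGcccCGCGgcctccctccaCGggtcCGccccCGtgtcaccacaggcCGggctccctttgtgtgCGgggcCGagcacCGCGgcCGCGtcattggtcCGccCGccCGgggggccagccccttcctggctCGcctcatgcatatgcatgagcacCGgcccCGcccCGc
CG, which reads the same on both strands, occurs 21 times before *Bmi1*, 30 times before *Ring1*, 5 times before *Pcgf2* and 36 times before this *Kdm2b* start. Counted over the 300 bases around the start (50 transcribed), *Bmi1* holds 23, *Ring1* 37, *Pcgf2* 10 and *Kdm2b* 47. Over all 32851 such RefSeq windows the median is 7 (quartiles 3 and 20), and 94.57% hold at least 1 CG. RefSeq windows were found for 9 of 10 members, and their CG counts ran from 9 (*Phc1*) to 49 (1 of 4 windows of *Kdm2b*).

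The catalytic subunits differed from each other. *Ring1* was measured at 8.57, 5.80, 4.88 and 5.19 CPM in *Ehmt2* controls and at 3.83, 4.93, 4.62 and 2.60 CPM in *Ehmt2* knockouts. Every knockout lay below the control mean, but knockout 2 was above control 3, and the highest control was replicate 1. The log2 fold change was -0.64 (SE 0.26, adjusted p = 0.36). The *Ezh2* cross had the opposite order, with 3.25, 4.25 and 3.69 CPM in controls and 6.28, 6.04 and 7.16 CPM in knockouts. These groups did not overlap, and the log2 fold change was 0.80 (SE 0.25, adjusted p = 0.57). Such separation was seen for 3 of 10 members in the *Ezh2* cross (*Bmi1*, *Ring1*, *Kdm2b*), against 14.2% of tested genes, and for 1 of 10 in the *Ehmt2* cross (*Pcgf2*), against 6.21%. *Ring1* lies on chromosome 17 at a distance of 0.875 Mb from *Ehmt2*, so the knockouts of that cross also share the chromosome segment around the targeted allele, and the part of linked alleles in its value was not tested.

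*Rnf2*, whose product is the main ligase of pluripotent cells, had levels that overlapped in both crosses. They were 22.8, 25.8, 28.4 and 22.6 CPM in *Ehmt2* controls and 34.3, 25.1, 30.0 and 24.5 CPM in *Ehmt2* knockouts (log2 fold change 0.19, SE 0.14, adjusted p = 0.65). *Ezh2* controls had 33.9, 27.6 and 32.0 CPM and *Ezh2* knockouts 31.8, 27.2 and 22.4 CPM (log2 fold change -0.20, SE 0.16, adjusted p = 0.86). The 95% intervals were -0.12 to 0.50 and -0.57 to 0.16. The ratio of *Rnf2* to *Ring1*, both per kilobase of transcript, ran from 2.15 to 4.69 in *Ehmt2* controls and 4.11 to 7.61 in *Ehmt2* knockouts. Across the *Ezh2* cross it ran from 5.25 to 8.44 in controls and 2.53 to 4.09 in knockouts, without overlap. Since *Ring1* itself did not overlap there, the ratio is not an independent result.

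*Bmi1* had the largest difference with a p under 0.05 among the members in both crosses. In *Ehmt2* controls it was at 3.23, 3.83, 2.91 and 0.884 CPM, and in *Ehmt2* knockouts at 8.67, 4.87, 7.23 and 2.82 CPM. Each knockout was above the control mean, and the lowest knockout, replicate 4, lay among the controls while control 4 was the lowest of all. The log2 fold change was 1.20 (SE 0.28, 2.30-fold, adjusted p = 0.088; DESeq2 adjusted p = 0.0033). The level in *Ezh2* controls was 6.72, 3.31 and 3.34 CPM, and in *Ezh2* knockouts 16.7, 12.9 and 11.5 CPM. All *Ezh2* knockouts lay above all controls, with a log2 fold change of 1.62 (SE 0.31, 3.07-fold, adjusted p = 0.31; DESeq2 adjusted p = 0.00015). Raw counts behind these levels ran from 49 to 519 per library. The two-sided exact permutation test gave p = 0.11 for *Bmi1* in the *Ehmt2* cross and p = 0.1 in the *Ezh2* cross, the smallest that 3 against 3 can give. That test pools all replicates, whereas edgeR's fit of the *Ehmt2* cross separates replicate 4 from replicates 1 to 3. *Ehmt2* knockouts 1 to 3 lay above controls 1 to 3, and knockout 4 above control 4. The share of all genes with such an arrangement was not counted, so it adds no weight to the value of *Bmi1*.

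*Pcgf2*, the paralogue that competes for the same place in canonical PRC1, was at 35.3, 28.9, 32.4 and 35.1 CPM in *Ehmt2* controls and at 23.8, 22.7, 28.7 and 16.2 CPM in *Ehmt2* knockouts. These groups did not overlap, with control 2 and knockout 3 nearest to each other. The log2 fold change was -0.55 (SE 0.16, adjusted p = 0.20), and the exact permutation test gave p = 0.029, the smallest that 4 against 4 can give. *Pcgf2* was at 24.1, 33.8 and 24.8 CPM in *Ezh2* controls and 31.9, 36.5 and 30.5 CPM in *Ezh2* knockouts. The groups overlapped through control 2, and the log2 fold change was 0.26 (SE 0.17, adjusted p = 0.81). Per kilobase, *Pcgf2* exceeded *Bmi1* in every epiblast. Its ratio to *Bmi1* ran from 10.9 to 57.5 in *Ehmt2* controls and 3.97 to 8.31 in *Ehmt2* knockouts, and from 5.19 to 14.8 in *Ezh2* controls and 2.76 to 4.11 in *Ezh2* knockouts. The value of 57.5 is that of *Ehmt2* control 4, and the other *Ehmt2* controls reached 16.1. The ranges did not overlap in either cross. This ratio is formed from the levels above, so it is not independent of them, and other pairs of genes were not examined.

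*Pcgf6* of the variant complex had fold changes close to 0 in both crosses. Its level was 41.2, 39.4, 49.6 and 34.6 CPM in *Ehmt2* controls and 42.3, 37.0, 43.0 and 42.6 CPM in *Ehmt2* knockouts. *Ezh2* controls had 39.8, 35.4 and 44.6 CPM and *Ezh2* knockouts 38.5, 32.7 and 43.8 CPM. The log2 fold changes were 0.01 (95% interval -0.28 to 0.30) and -0.06 (-0.40 to 0.28), and both groups overlapped throughout.

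**Figure D2:**
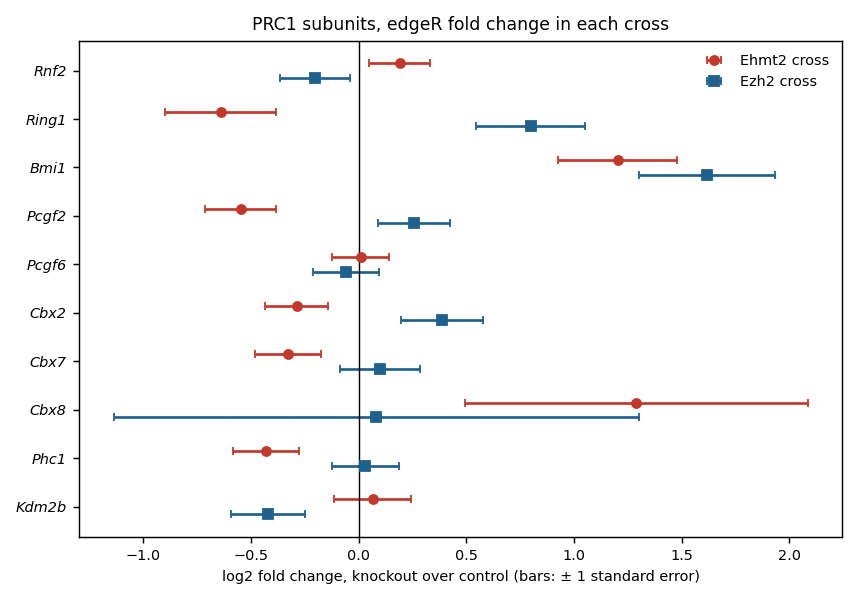
Log2 fold change of each PRC1 member, knockout over control (horizontal axis), in the *Ehmt2* cross (red circles) and the *Ezh2* cross (blue squares), with bars of 1 SE on each side. *Bmi1* is to the right in both crosses (1.20 and 1.62), *Ring1* on opposite sides (-0.64 and 0.80), and *Cbx8* has the widest bars.

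Of the CBX readers of H3K27me3, *Cbx2* was at 26.1, 29.2, 35.3 and 36.9 CPM in *Ehmt2* controls and 25.5, 28.6, 26.3 and 23.9 CPM in *Ehmt2* knockouts (log2 fold change -0.29, SE 0.15, adjusted p = 0.48). It was at 32.8, 24.8 and 27.9 CPM in *Ezh2* controls and 37.9, 28.2 and 45.6 CPM in *Ezh2* knockouts (log2 fold change 0.39, SE 0.19, adjusted p = 0.74). Both pairs of groups overlapped. *Cbx7*, the CBX protein of embryonic stem cells, was at 54.9, 37.0, 46.3 and 46.1 CPM in *Ehmt2* controls and 45.0, 34.4, 32.2 and 34.9 CPM in *Ehmt2* knockouts (log2 fold change -0.33, SE 0.15, adjusted p = 0.43). It was at 40.4, 49.0 and 34.6 CPM in *Ezh2* controls and 41.9, 35.8 and 55.1 CPM in *Ezh2* knockouts (log2 fold change 0.10, SE 0.19, adjusted p = 0.95). Each *Ehmt2* knockout had less *Cbx2* and *Cbx7* than the control mean, with overlapping ranges. *Cbx8*, a CBX protein known from differentiating cells, was close to the detection limit. It had between 0 and 46 raw counts per library, or 0.0635 to 0.307 CPM in *Ehmt2* controls and 0.177 to 0.643 CPM in *Ehmt2* knockouts. The *Ezh2* controls were at 1.33, 0 and 0.088 CPM, where a count of 0 allows up to 3 counts (0.0886 CPM, counting error only), and the knockouts at 0.290, 0.831 and 0.381 CPM. A difference in *Cbx8* was not detectable at this depth (95% intervals of the log2 fold change -0.45 to 3.03 and -2.62 to 2.78).

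*Phc1* was the most abundant member. It was at 245, 199, 226 and 229 CPM in *Ehmt2* controls and 113, 199, 158 and 201 CPM in *Ehmt2* knockouts. Knockout 1 was the lowest, knockouts 2 and 4 lay just above control 2, and the log2 fold change was -0.43 (SE 0.15, adjusted p = 0.28). *Phc1* was at 193, 202 and 234 CPM in *Ezh2* controls and 186, 186 and 271 CPM in *Ezh2* knockouts (log2 fold change 0.03, SE 0.16, adjusted p = 0.98). It lies on chromosome 6 at a distance of 74.7 Mb from *Ezh2*.

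*Kdm2b*, which brings variant PRC1 to CpG islands, was at 47.0, 57.7, 59.7 and 42.8 CPM in *Ehmt2* controls and 36.7, 56.3, 58.6 and 65.3 CPM in *Ehmt2* knockouts (log2 fold change 0.06, SE 0.18, adjusted p = 0.93). *Ezh2* controls were at 58.0, 67.5 and 57.0 CPM and *Ezh2* knockouts at 34.1, 54.1 and 48.0 CPM. Every *Ezh2* knockout was below every control, with knockout 1 the lowest, and the log2 fold change was -0.42 (SE 0.17, adjusted p = 0.67). Without *Ezh2* control 2 and *Ezh2* knockout 1, the epiblasts with the high visceral endoderm markers, it was -0.17 (SE 0.17, adjusted p = 0.93). The transcript shares 627 of its 5180 exonic bases with *Rnf34* on the opposite strand, and since the strand used in counting is not given in the sources used here, reads of the 2 genes there cannot be told apart. Of the isoforms of *Kdm2b*, 5 of 20 tested had an unadjusted p under 0.05 in the *Ezh2* cross, all among the 18 with a lower level in knockouts (2.97% of all tested transcripts were lower at that p). The shorter isoform starting within the gene (chr5:122870668-122900355, minus strand) had a log2 fold change of -0.53 (SE 0.17, adjusted p = 0.57).

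The extraembryonic ectoderm markers were set beside these values in the *Ehmt2* cross, and an association was not tested. *Ehmt2* knockout 1, at 981 CPM of summed markers, had the lowest *Phc1* (113 CPM) and the highest *Bmi1* (8.67 CPM) of the 8 libraries. The lowest *Pcgf2* (16.2 CPM) and *Ring1* (2.60 CPM) were in knockout 4, at 89.5 CPM of markers. With the mean log2 level of the 10 markers as a covariate, the log2 fold change of *Phc1* was 0.35 (SE 0.20, adjusted p = 0.55) and that of *Kdm2b* 0.89 (SE 0.27, adjusted p = 0.30). In the same fit *Pcgf2* was at -0.75 (SE 0.35), *Ring1* at -0.49 (SE 0.55) and *Bmi1* at 0.89 (SE 0.60), with adjusted p of 0.46, 0.79 and 0.62. The direction of *Phc1* reversed, while *Pcgf2*, *Ring1* and *Bmi1* kept theirs with larger SE. The markers do not measure cell types alone, since they include *Rhox5*, which the study found raised in a proportion of single *Ehmt2*-/- epiblast cells. Their mean log2 level itself ran from 0.65 to 2.01 in *Ehmt2* controls and from 1.87 to 5.84 in *Ehmt2* knockouts. The fit separates replicate 4 from replicates 1 to 3. In replicates 1 to 3 the level was 1.45 to 2.01 in controls and 3.88 to 5.84 in knockouts. In replicate 4 it was 0.65 and 1.87. *Ezh2* controls had 0.95 to 1.76 and *Ezh2* knockouts 2.12 to 3.33. Genotypes overlapped in none of these, so the covariate fits cannot separate marker level from genotype. A 6-gene form without *Rhox5*, *Sfmbt2*, *Esrrb* and *Bmp4* is given in the closing section. Among *Ezh2* epiblasts the covariate left *Bmi1* at 1.17 (SE 0.57, adjusted p = 0.71), *Ring1* at 0.81 (SE 0.47, adjusted p = 0.76) and *Kdm2b* at -0.16 (SE 0.29, adjusted p = 0.95). The covariate fits cannot set the part of other cell types in these values apart from genotype. Beyond the fit without the epiblasts with high visceral endoderm markers, that part was not tested.

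**Figure D3:**
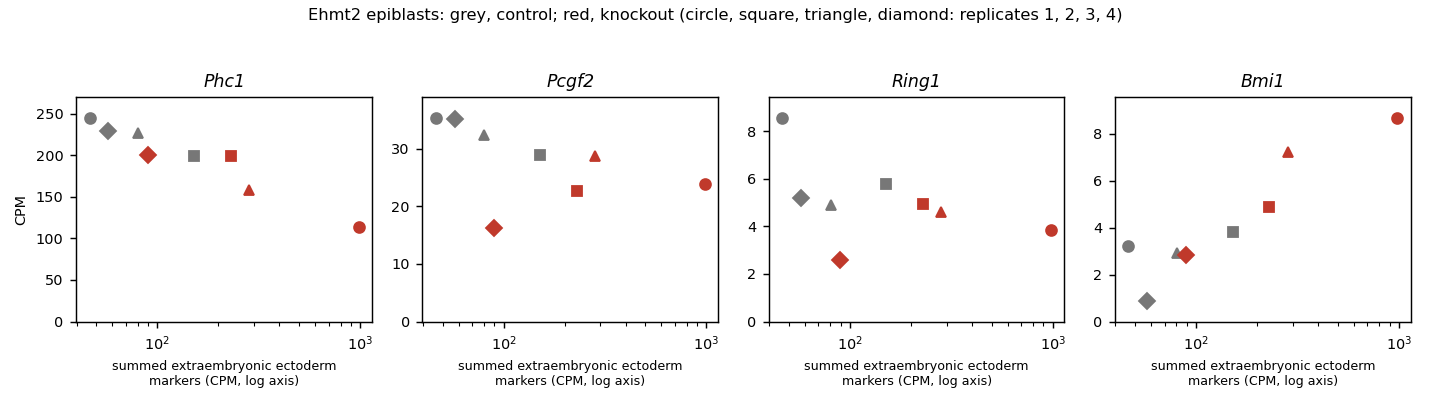
CPM of *Phc1*, *Pcgf2*, *Ring1* and *Bmi1* (vertical axes, from 0) against the summed CPM of 10 extraembryonic ectoderm markers (horizontal axes, log scale) in the 8 epiblasts of the *Ehmt2* cross, grey for control and red for knockout. The sum weighs abundant markers most, such as *Eomes*, *Sfmbt2* and *Rhox5*. *Ehmt2* knockout 1, at 981 CPM of markers, has the lowest *Phc1* and the highest *Bmi1*, whereas the lowest *Pcgf2* and *Ring1* are in knockout 4, at 89.5 CPM of markers.

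The difference between the crosses was tested in a joint fit of all 14 epiblasts. edgeR called 0 of 10 members, where 0.118% of 15201 genes were called, and 3 of 10 had an unadjusted p under 0.05, against 10.3% of genes. All 3 were lower in the *Ehmt2* cross than in the *Ezh2* cross, as 5.61% of genes were. DESeq2 called *Ring1* alone, against 0.98% of genes. The difference was -1.44 for *Ring1* (SE 0.36, adjusted p = 0.22; DESeq2 adjusted p = 0.019), -0.80 for *Pcgf2* (SE 0.25, adjusted p = 0.39) and -0.67 for *Cbx2* (SE 0.24, adjusted p = 0.47). For *Bmi1*, higher in the knockouts of both crosses, it was -0.41 (95% interval -1.29 to 0.47, adjusted p = 0.84).

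Levels of different members were compared per kilobase of transcript, within the controls. In *Ehmt2* controls *Phc1* stood at 53.3 ± 4.58 CPM per kilobase (SD, n = 4), followed by *Pcgf6* at 19.1 ± 2.91, *Pcgf2* at 13.3 ± 1.20 and *Kdm2b* at 10.0 ± 1.58. *Cbx2*, *Rnf2* and *Cbx7* came next at 8.38, 7.88 and 7.60, and from *Kdm2b* to *Cbx7* the ranges of neighbours in this order overlapped. The place of *Cbx7* depends on the transcript chosen, which is annotated as a retained intron and is 6057 bases long. A protein-coding *Cbx7* isoform of 3388 bases had 43.7 CPM against 46.0 CPM in *Ehmt2* controls. Per kilobase that isoform would stand higher. The *Ring1* transcript used is likewise a retained intron, of 2552 bases beside 2034 in the protein-coding isoform. *Ring1* (2.39 ± 0.66), *Bmi1* (0.755 ± 0.356) and *Cbx8* (0.0455 ± 0.0303) were lowest, each below the one before without overlap. In *Ezh2* controls the order was the same at both ends, from *Phc1* (49.8 ± 5.08, n = 3) and *Pcgf6* (18.5 ± 2.13) to *Ring1* (1.46 ± 0.198), *Bmi1* (1.24 ± 0.546) and *Cbx8* (0.132 ± 0.208). There the ranges of *Ring1* and *Bmi1* overlapped. Among the ligases, *Rnf2* exceeded *Ring1* in every control epiblast.

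Isoforms listed for a gene share exons and reads, so they are not independent measurements. All 7 tested *Bmi1* isoforms were higher in *Ezh2* knockouts (log2 fold change 1.62 to 2.21), each with an unadjusted p under 0.05, as 4.05% of tested transcripts were. All 6 tested in the *Ehmt2* cross were higher in knockouts (0.45 to 1.25), 3 of them with a p under 0.05, against 6.15% of transcripts. All 16 *Phc1* isoforms were lower in *Ehmt2* knockouts (-0.73 to -0.42), each with a p under 0.05, against 5.62% of transcripts. In the *Ezh2* cross 9 were higher (0.001 to 0.056) and 7 lower (-0.50 to -0.17). Those 7 are the shorter isoforms, of 347 to 970 bases, and the 9 have 3127 to 4213 bases. Of the lower ones 2 had a p under 0.05, against 2.97% of transcripts. For *Pcgf2*, 6 of 7 isoforms were lower in *Ehmt2* knockouts, each of the 6 with p under 0.05, and the least counted, at 0.50, was not. The most counted transcripts of *Ring1* and *Cbx7* are annotated as retained introns, at chr17:34021084-34023932 and chr15:79915813-79932768, so part of their reads may be unspliced. The protein-coding *Ring1* isoform gave -0.66 in the *Ehmt2* cross and 0.65 in the *Ezh2* cross, and the most counted protein-coding *Cbx7* isoform gave -0.34 and 0.10.

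**Figure D4:**
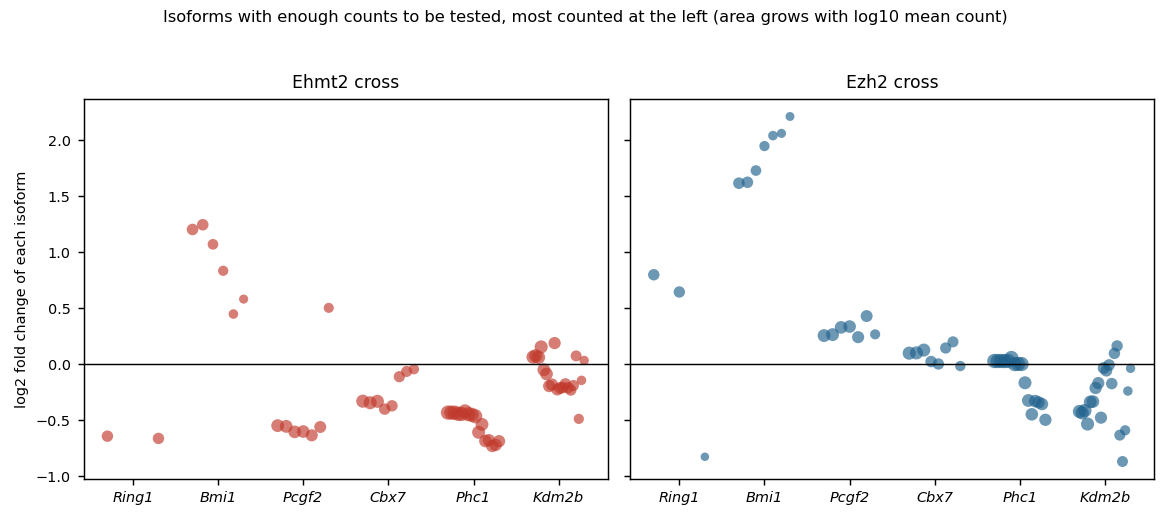
Log2 fold change (vertical axis) of every isoform with enough counts to be tested, for 6 PRC1 members, most counted isoform at the left of each gene and point area growing with log10 mean count. In the *Ehmt2* cross (left) all *Phc1* isoforms are below 0 and all *Bmi1* isoforms above; in the *Ezh2* cross (right) all *Bmi1* isoforms lie between 1.62 and 2.21.

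Among 21 other PRC1 genes, edgeR called 0 in either cross, and DESeq2 called 3 in the *Ehmt2* cross (*Scml2*, *Yaf2* and *Mga*, against 4.55% of genes) and 0 in the *Ezh2* cross (1.01% of genes). In the *Ehmt2* cross 9 were higher and 1 lower in knockouts at an unadjusted p under 0.05, where 8.59% and 6.85% of genes were, and the median log2 fold change was 0.15. *Scml2*, a Sex comb on midleg homologue, was at 0.59, 1.04, 0.66 and 0.02 CPM in controls and 3.47, 2.62, 1.20 and 0.27 CPM in knockouts (log2 fold change 1.96, SE 0.54, adjusted p = 0.16; DESeq2 adjusted p = 0.023). *Yaf2*, of variant PRC1, was at 4.38, 5.80, 7.21 and 5.30 CPM in controls and 9.06, 8.92, 9.75 and 9.33 CPM in knockouts (0.71, SE 0.21, adjusted p = 0.20; DESeq2 adjusted p = 0.039), and every knockout was above every control. *Pcgf5*, another variant PCGF subunit, had a log2 fold change of 0.98 (SE 0.36, adjusted p = 0.29). The scaffold *Mga* of the PCGF6 complex was the gene lower in knockouts, at 251, 236, 232 and 222 CPM in controls and 178, 190, 197 and 165 CPM in knockouts. Its groups did not overlap (log2 fold change -0.37, SE 0.08, adjusted p = 0.085; DESeq2 adjusted p = 0.0089). Such separation was seen for 4 of the 21 in the *Ehmt2* cross, against 6.21% of genes. In the *Ezh2* cross only *Phc2* of the 21 had an unadjusted p under 0.05 (0.54, SE 0.24, adjusted p = 0.71), where 8.87% of genes did.

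Of 5 genes that remove ubiquitin from H2A or assist in it, *Bap1*, the H2AK119 deubiquitinase, had a p under 0.05 in the *Ehmt2* cross (log2 fold change 0.36, SE 0.14, adjusted p = 0.34) and none did in the *Ezh2* cross, against 15.4% and 8.87% of genes. Of 10 PRC2 genes without *Ezh2*, the core subunits *Suz12* (0.32, SE 0.13, adjusted p = 0.36) and *Rbbp7* (0.31, SE 0.14, adjusted p = 0.40) had a p under 0.05 in the *Ehmt2* cross, both higher in knockouts, as 8.59% of genes were. With the extraembryonic ectoderm covariate they were at -0.09 and -0.23. Of the same list in the *Ezh2* cross the core subunits *Rbbp4* (-0.44, SE 0.12, adjusted p = 0.52) and *Eed* (-0.45, SE 0.16, adjusted p = 0.60) and the accessory subunit *Jarid2* (-0.32, SE 0.12, adjusted p = 0.63) were lower in knockouts at a p under 0.05, as 3.37% of genes were. The accessory subunit *Phf19* was higher there at a p under 0.05, as 5.5% of genes were, at 0.06, 0.41 and 0.03 CPM in controls and 3.06, 1.30 and 1.61 CPM in knockouts (3.55, SE 0.87, adjusted p = 0.42; DESeq2 adjusted p = 0.008). edgeR called no gene of these lists in either cross, and DESeq2 called *Phf19* alone.

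Of 23 developmental regulators and cell cycle inhibitors silenced by Polycomb in other cells, 7 were counted often enough to be tested in the *Ehmt2* cross and 10 in the *Ezh2* cross. In knockouts 3 of 7 were higher and 4 lower in the *Ehmt2* cross, and 5 higher and 5 lower in the *Ezh2* cross, with log2 fold changes there from -1.71 to 4.12. edgeR called 0 in both, and DESeq2 called 0 and 2, against 4.55% and 1.01% of genes. In the *Ehmt2* cross 1 had an unadjusted p under 0.05 (15.4% of genes), and in the *Ezh2* cross 3 had (8.87%), all of them higher. The 3 of the *Ezh2* cross were *Zic1*, at 0.20, 0.18 and 0.09 CPM in controls and 1.35, 3.60 and 3.35 CPM in knockouts (log2 fold change 4.12, SE 0.61, adjusted p = 0.11; DESeq2 adjusted p = 1.6e-06), *Hoxd13* (2.57, SE 0.59, adjusted p = 0.40; DESeq2 adjusted p = 0.0077) and *Isl1* (2.50, SE 1.05, adjusted p = 0.69). All 3 were higher in every *Ezh2* knockout than in every *Ezh2* control, *Isl1* at under 1 CPM in each of these libraries. Groups did not overlap for these 3 of the 10 tested, against 14.2% of all tested genes. The gene of the *Ehmt2* cross was *Wt1* (1.53, SE 0.54, adjusted p = 0.28).

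**Figure D5:**
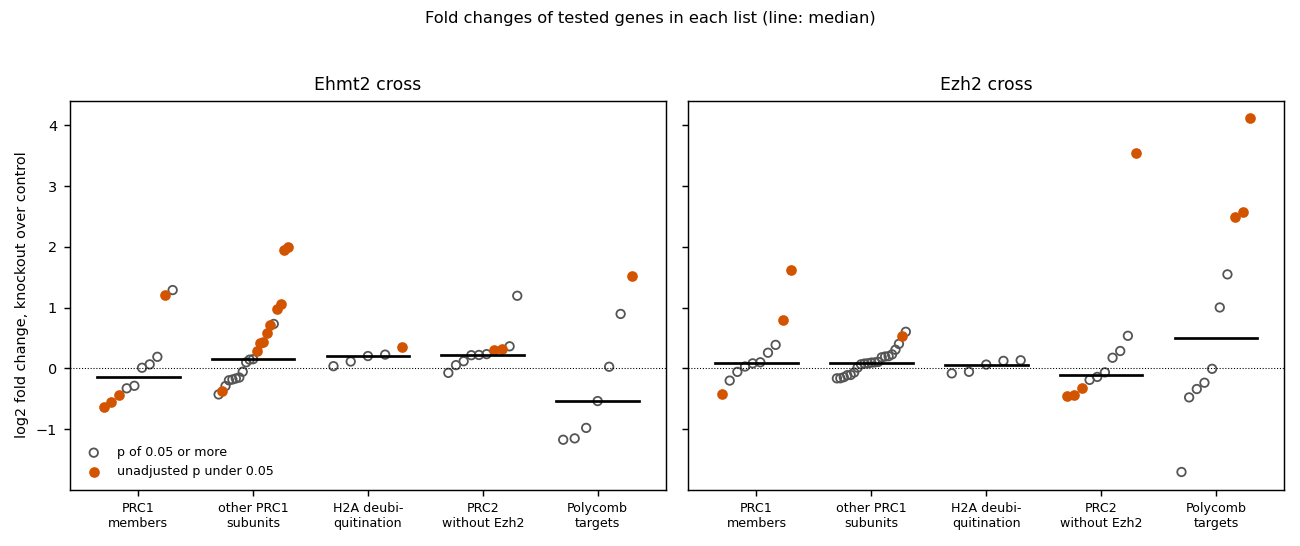
Log2 fold change, knockout over control (vertical axis), of every tested gene of 5 lists in the *Ehmt2* cross (left) and the *Ezh2* cross (right). Filled points have an unadjusted p under 0.05, and the line is the list's median. The PRC1 members' medians are -0.14 and 0.09, and 3 Polycomb targets reach 2.50 to 4.12 in the *Ezh2* cross.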

How the data were processed

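The deposited counts are whole reads per Ensembl transcript. To make them, the authors amplified 750 pg of RNA from each epiblast, trimmed the reads, aligned them with TopHat2 to GRCm38 (mm10) and counted with HTSeq; strand settings and versions are not given in the sources used here. A transcript missing from a file was set to 0. In both replicate 4 libraries of the *Ehmt2* cross a row that names no transcript (12.6% and 13.3% of the total) was left out. Both were also the deepest, at 62589918 and 68464895 counts against at most 45007990 in any other library. Counts of replicates of the same genotype were compared in pairs. The chi-square per degree of freedom was 146 to 192 in pairs with replicate 4 and 16.7 to 44.4 in the others. Of 72515 transcripts, 70021 (96.6%) matched GENCODE vM21.

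Members and lists were chosen with earlier results of these data known. Named besides the members are the targeted genes and, per cross and list, up to 3 genes with the smallest unadjusted p under 0.05 in each direction. Counts were filtered with filterByExpr by genotype, scaled with TMM and tested with edgeR 4.0.16 (glmQLFit, glmQLFTest; R 4.3.3) for each cross, with a term for the comparison sets of the study's source data (replicates 1 to 3, replicate 4) in the *Ehmt2* cross. The crosses were compared by a contrast over all 14 epiblasts. A call is an adjusted p under 0.05. DESeq2 1.42.0 and the alternatives of the closing section were also run. Per-kilobase values divide CPM by transcript length. An exact permutation test of mean CPM (two-sided) was added for single members. That test and the statements on overlap pool all replicates of a group, replicate 4 of the *Ehmt2* cross included. The code was tested on simulated counts. ChIP-seq and bisulfite samples were not analysed here.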

Additional observations from a re-analysis of the deposited data

Results flagged for a closer look

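In the *Ehmt2* knockouts, *Pcgf6* in replicate 2 (37.0 CPM) stood apart from the other 3 (42.3 to 43.0 CPM): the gap to its neighbour was 0.88 of the group's range, above Dixon's 95% critical value for 4 samples, which chance passes in about 1 of 20 groups, and 20 groups of the *Ehmt2* cross were looked at. The difference of *Ring1* between crosses, -1.44 on the log2 scale, was set apart because all 4 *Ehmt2* knockouts were below their control mean and all 3 *Ezh2* knockouts above theirs; edgeR's test of the difference gave an adjusted p of 0.22. *Pcgf2* had the same arrangement, with a difference of -0.80 and an adjusted p of 0.39.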

How the results depend on the processing

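With DESeq2, 1 of 10 members was called in each cross (*Bmi1*) and 1 in the difference between crosses (*Ring1*), against 0 with edgeR; under every other alternative run, leaving out single epiblasts included, edgeR called 0 of 10. The 334 transcripts called in the *Ehmt2* cross became 1557 with DESeq2, 641 with no filter, 185 with 1 transcript per gene, 52 without the comparison set term, 19 with the extraembryonic ectoderm covariate and 122 with its 6-gene form, and 103 to 591 without single epiblasts or replicate 4. The 6 called in the *Ezh2* cross became 330 with DESeq2, 30 with no filter, 0 with 1 transcript per gene, 58 with the covariate, 364 with the per-embryo rule of the study's kind, 30 without the 2 epiblasts with high visceral endoderm markers, and 0 to 28 without single epiblasts; that left-out pair and the 6-gene covariate were chosen after seeing the data. With the covariate, 1 member (*Kdm2b*) in place of 4 had an unadjusted p under 0.05 in the *Ehmt2* cross, and 0 in place of 3 in the *Ezh2* cross. *Ehmt2* was no longer called with the covariate or without the comparison set term (adjusted p of 0.18 and 0.29). *Ezh2* itself was no longer called with the covariate (0.21), with 1 transcript per gene (0.078) or without *Ezh2* knockout 1, 2 or 3 (adjusted p of 0.082, 0.34 and 0.18).

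A replicate block (replicate number in the model) gave 117 called transcripts in the *Ehmt2* cross and 10 in the *Ezh2* cross, and no call on a member changed. Same-numbered epiblasts correlated in their deviations from the group means at 0.054 to 0.373 (*Ehmt2* cross) and -0.114 to 0.156 (*Ezh2* cross). Different-numbered ones were at -0.24 to 0.15 and -0.20 to 0.21. In the *Ehmt2* cross the mean was 0.17 for same numbers and -0.046 for different ones, and 0.373 is the value of replicate 4. These values do not settle whether numbers mark litters. Litters are not labelled per epiblast, so the numbers were not taken as pairs. The block reversed *Cbx8* in the difference between crosses (-0.35).

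The covariate reversed, in the *Ehmt2* cross, *Phc1* (0.35; 0.025 with 6 genes), *Rnf2* (-0.16; -0.030), *Cbx8* (-0.51; -0.018), *Rbbp7* (-0.23; -0.044) and *Suz12* (-0.090), and in the *Ezh2* cross *Pcgf6* (0.19). With 1 transcript per gene *Pcgf6* was at -0.011 in the *Ehmt2* cross, and without the 2 epiblasts with high visceral endoderm markers *Cbx8* was at -0.23. Leaving out epiblasts reversed only values near 0 or those of *Cbx8*. The ranges were -0.091 to 0.10 for *Pcgf6* and -0.12 to 0.23 for *Kdm2b* in the *Ehmt2* cross. In the *Ezh2* cross they were -0.17 to 0.042 for *Pcgf6*, -0.093 to 0.24 for *Cbx7*, -0.50 to 3.40 for *Cbx8* and -0.18 to 0.12 for *Phc1*, and in the difference -0.040 to 0.18 for *Pcgf6* and -2.11 to 1.90 for *Cbx8*. The cause was not tested. *Bmi1*, *Ring1*, *Pcgf2* and *Cbx2* kept their direction in both crosses under all alternatives, with *Pcgf2* as low as 0.017 in the *Ezh2* cross. Depth limits *Cbx8* most, at 0 to 46 counts per library.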
